A study of Mus musculus with 3 samples.

Results

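The histone genes were examined in c2c12, a mouse myoblast cell line that is immortalized, after 2 days in myogenic induction medium, which is DMEM with 2% horse serum. The cells were differentiated on tissue culture plates (TCP), on a hydrogel of 15% methacrylated gelatin (GelMA), or on the same hydrogel made with 1% poly sodium 4-styrenesulfonate, a synthetic heparin mimic (GelMA-PSS). TCP and GelMA serve as the controls. Each substrate has 1 RNA-seq library, so no value below has a replicate error and no test between substrates was possible.

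Of the 23238 gene symbols in the count files, 76 are histone genes. They were chosen by name. The symbols that begin with Hist1h, Hist2h, Hist3h or Hist4h gave 68 clustered histone genes (54, 10, 3 and 1 from the respective loci), which fall into 6 H1, 18 H2A, 19 H2B, 12 H3 and 13 H4 genes. The 19 H2B genes include Hist3h2bb-ps, whose symbol marks a pseudogene. The other 8 are the variant genes H2afx, H2afz, H2afv, H2afy, H3f3a, H3f3b, H1f0 and H1fx. Levels are given in CPM, which are counts scaled to a common library size with TMM factors, and ratios as log2 of (CPM + 1) unless a fold is stated. Folds are ratios of CPM without a pseudocount. Intervals are 95% intervals that cover counting error only, and their width would be an underestimate had both mates of a read pair been counted.

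Histones H2A, H2B, H3 and H4 form the octamer around which DNA is wrapped, and H1 binds the linker DNA between nucleosomes. The clustered genes are known as replication-dependent: dividing cells use them in S phase to package new DNA, and their mRNAs typically end in a conserved stem-loop in place of a poly(A) tail. Variant genes lie outside the clusters, carry introns in most cases, as a rule give polyadenylated mRNAs and are used throughout the cell cycle, so that cells that leave the cycle, as myoblasts do when they differentiate, come to rely on them. Some clustered genes are also known to give polyadenylated transcripts in differentiating cells.

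In the GENCODE vM21 annotation (build GRCm38) all Hist1 members lie on chromosome 13, the Hist2 members on chromosome 3, the Hist3 members on chromosome 11 and Hist4h4 on chromosome 6. Of the 68 clustered genes, 63 have a single exon. A search of the annotated transcripts for the stem-loop, spelled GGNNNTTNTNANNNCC on the coding strand, found it in 46 of 68 clustered genes and in H2afx alone among the 8 variants, while 3812 of 141767 annotated transcripts (2.69%) hold these letters. The sites are shown because this element is typical of clustered histone mRNAs, although the search did not find it in all of them. They are written with 5 flanking bases on each side and the 16 bases of the stem-loop in capitals, from the GENCODE transcripts:
Hist1h1c: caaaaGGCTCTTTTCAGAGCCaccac
Hist1h2ac: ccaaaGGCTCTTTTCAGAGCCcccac
Hist1h2bk: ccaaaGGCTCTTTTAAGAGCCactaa
Hist1h3c: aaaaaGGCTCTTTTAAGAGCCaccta
Hist2h3c1: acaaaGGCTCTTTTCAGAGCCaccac
Hist1h4i: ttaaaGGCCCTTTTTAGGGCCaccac
H2afx: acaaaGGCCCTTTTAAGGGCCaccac

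The first of these lies at chr13:23739507-23739532 (plus strand), that of Hist2h3c1 at chr3:96247322-96247347 (plus strand), that of Hist1h4i at chr13:22040961-22040986 (minus strand) and that of H2afx at chr9:44335235-44335260 (plus strand). The annotated transcripts of these genes do not all stop at the stem-loop. The annotation of Hist1h2bk ends 30 bases and that of Hist1h3c 74 bases after it, whereas Hist1h4i runs on for 330 bases, H2afx for 822, Hist1h1c for 840, Hist2h3c1 for 1167 and Hist1h2ac for 2010. The annotated transcripts of Hist1h2bc, Hist1h2bq and Hist1h2br, which have 2 exons, hold no match.

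H2A and H2B genes of the clusters often stand back to back and share 1 intergenic region as promoter. The members hold 13 such pairs, counting that of Hist3h2a with Hist3h2bb-ps. A pair of these regions is shown, because the genes on either side of them are compared below. They were read from RefSeq promoters (GRCm38.p6), plus strand, with the CCAAT box, the TATAAA box and the octamer ATTTGCAT in capitals on either strand; no 2 of these motifs overlap in the letters shown. Hist1h2ac and Hist1h2bc are separated by the 250 bases of chr13:23683949-23684198, and Hist2h2ac and Hist2h2be by the 238 bases of chr3:96220881-96221118:
Hist1h2ac/Hist1h2bc: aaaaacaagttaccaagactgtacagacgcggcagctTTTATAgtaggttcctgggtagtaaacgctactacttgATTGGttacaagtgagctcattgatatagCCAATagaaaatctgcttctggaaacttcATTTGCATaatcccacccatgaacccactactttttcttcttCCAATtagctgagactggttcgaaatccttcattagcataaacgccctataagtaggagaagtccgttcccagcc
Hist2h2ac/Hist2h2be: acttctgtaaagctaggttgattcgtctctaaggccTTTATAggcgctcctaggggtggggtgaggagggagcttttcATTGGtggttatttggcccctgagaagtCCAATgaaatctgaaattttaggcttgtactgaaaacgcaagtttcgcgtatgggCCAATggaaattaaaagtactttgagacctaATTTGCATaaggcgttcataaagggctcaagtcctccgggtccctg

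In the RefSeq windows from 250 bases before to 50 bases after each start, which were found for 69 members, CCAAT was present on either strand in all 6 H1, 18 H2A, 16 H2B and 10 H3 promoters but in 3 of 12 H4 promoters, beside 37.4% of 32851 mouse promoters. ATTTGCAT, the octamer bound by Oct factors, was present in 7 of 18 H2A and 6 of 16 H2B promoters and in 1.74% of all. TATAAA was present in 13.6% of all promoters and in 8 of 12 H4, 11 of 18 H2A and 8 of 16 H2B promoters.

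The libraries differ in size, from 87071144 counts (GelMA) through 119799095 (TCP) to 192171443 (GelMA-PSS). Myogenic markers were present in all libraries: Myod1, a transcription factor of myoblasts, had 94.3 CPM on TCP, 105 on GelMA and 119 on GelMA-PSS. Of 14 markers of other cell types, 2 reached 1 CPM in any library, namely Cd68 (1.53, 1.71 and 1.37 CPM) and Tubb3, which is not restricted to neurons (47.1, 60.4 and 99.0 CPM). The other 12, among them Ptprc, Epcam, Alb and Hbb-b1, lay at 0.156 CPM or less.

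The most abundant histone genes per length were variants. H3f3a and H3f3b, which both code for histone H3.3, had 188 and 148 CPM per kilobase on TCP, and H2afz, which codes for H2A.Z, had 164. H1f0, a linker histone, had 60.5, whereas the highest clustered genes, Hist2h2aa2, Hist2h2aa1 and Hist1h2bc, had 54.7, 49.2 and 44.7. The other 4 variants lay below these, with 33.9 CPM per kilobase for H2afv, 27.2 for H2afy, 7.32 for H2afx and 3.95 for H1fx. Of the 76 histone genes, 40 reached 1 CPM in at least 1 library, the limit for ratios: all 8 variants and 32 of the 68 clustered genes (3 H1, 11 H2A, 14 H2B, 3 H3 and 1 H4). Of these 32, 9 passed only through the GelMA-PSS library and none only through TCP or GelMA, so that counts over them lean towards GelMA-PSS, mostly within H2A, where 6 of 11 passed in this way. Sums over whole classes, given below, use every member and are free of this filter.

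**Figure D1:**
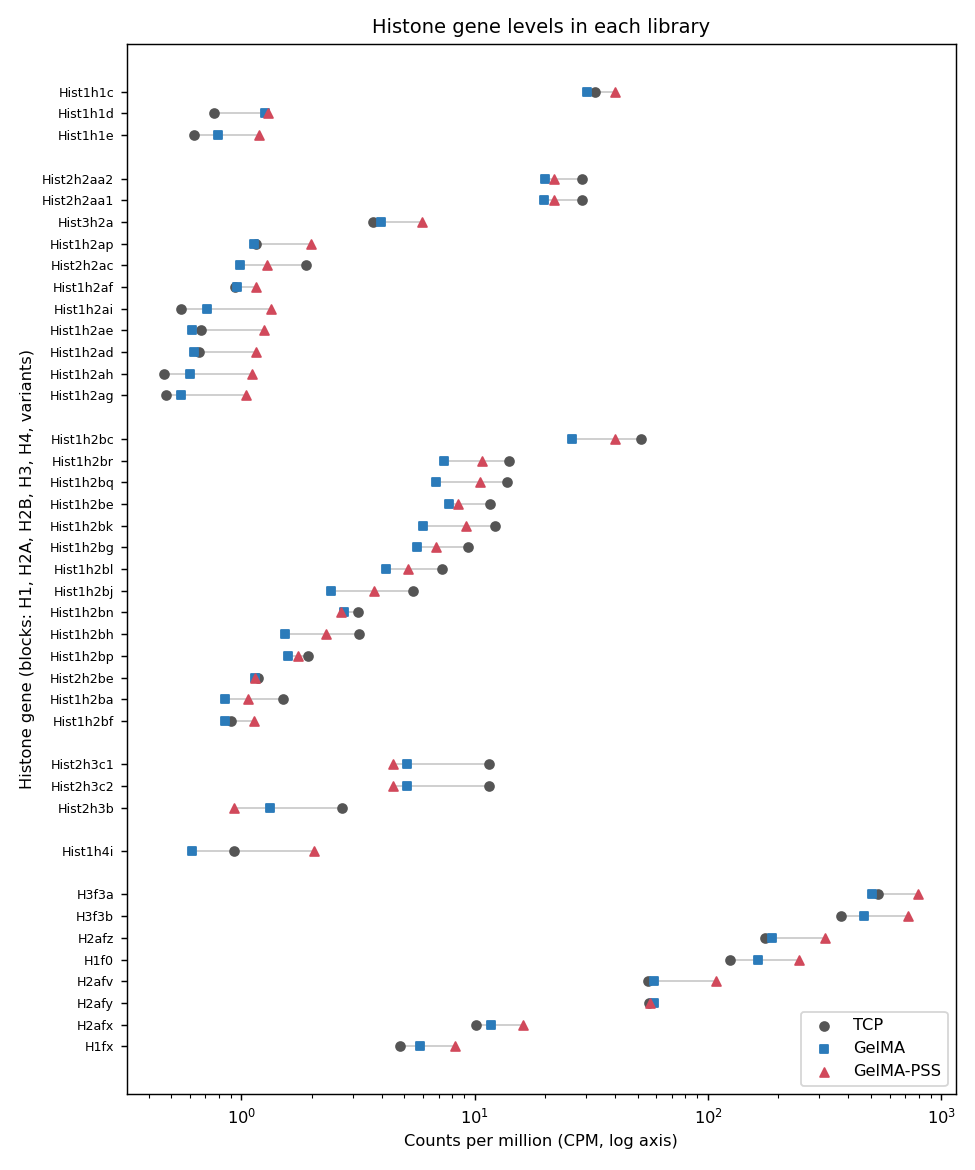
CPM (log axis) of the 40 histone genes that reached 1 CPM in at least 1 library, in blocks for clustered H1, H2A, H2B, H3 and H4 and for the variants; each point is 1 library (circle TCP, square GelMA, triangle GelMA-PSS) and the grey line spans the 3 values. The GelMA-PSS triangle is rightmost for 7 of 8 variants, whereas the TCP circle is rightmost for 13 of 14 H2B genes and for the 3 H3 genes.

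The 2 kinds of histone gene differed in the order of the substrates. Among the variants, 7 of 8 were higher on GelMA-PSS than on both controls, beside 45.3% of all 13169 genes tested, and 3 of 8 were more than 1.5-fold higher than both, beside 8.08% of all. With a correction for transcript length, described below, 6 of 8 were higher than both (40.9% of all genes) and 0 of 8 by 1.5-fold (3.15%). None of the variants was 2-fold higher than both controls, beside 1.37% of all genes. The median log2 ratio of the variants was 0.15 for GelMA against TCP, 0.60 for GelMA-PSS against GelMA and 0.76 for GelMA-PSS against TCP, where all genes had −0.01, 0.03 and 0.04. The 32 clustered genes had medians of −0.35, 0.27 and −0.23. The comparisons share libraries, so these medians are not independent of each other.

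H3f3b had 371 CPM on TCP, 467 on GelMA and 718 on GelMA-PSS, and H3f3a had 534, 505 and 794. Both H3.3 genes thus stood highest on GelMA-PSS, with folds of 1.54 (1.52 to 1.55) and 1.57 (1.56 to 1.59) against GelMA, but they took opposite orders in the controls. H1f0, the linker histone H1.0 that accumulates in differentiated and resting cells, had 124, 164 and 245 CPM, a fold of 1.97 (1.94 to 2.01) for GelMA-PSS against TCP. H1fx, the linker histone H1.10, had 4.80, 5.84 and 8.24 CPM.

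Among the H2A variants, H2afz had 176 CPM on TCP, 187 on GelMA and 318 on GelMA-PSS, and H2afv, which codes for the second H2A.Z protein, had 55.3, 58.7 and 108. Their folds for GelMA-PSS against GelMA were 1.70 (1.67 to 1.72) and 1.84 (1.79 to 1.90). H2afx, whose product is phosphorylated beside DNA breaks, had 10.1, 11.8 and 16.0 CPM. It is also the variant whose transcript holds the stem-loop shown above. H2afy, which codes for macroH2A1, was the variant that did not follow the others, with 55.7, 58.8 and 56.5 CPM and a fold of 1.01 (0.984 to 1.05) for GelMA-PSS against TCP.

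**Figure D2:**
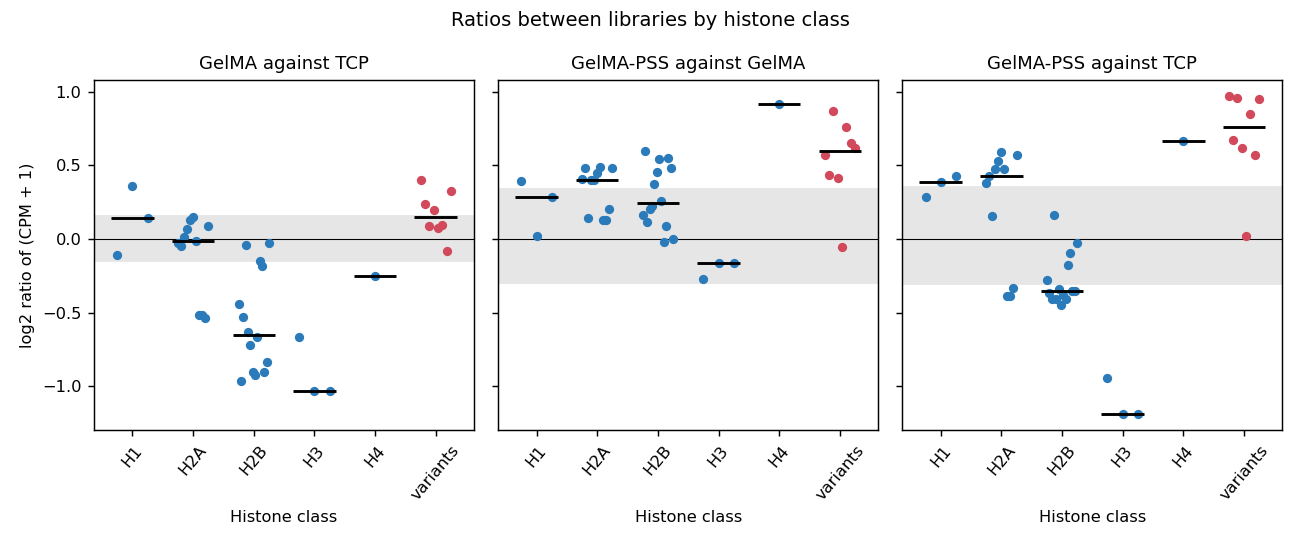
log2 ratios of (CPM + 1) in the 3 pairs of libraries for each histone gene that reached 1 CPM, by class; blue points are clustered genes, red points variants, black bars medians, and the grey band the middle 50% of all genes tested. H2B lies below 0 for GelMA against TCP (median −0.65), and the variants lie highest for GelMA-PSS against TCP (median 0.76).

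Linker histone H1. Hist1h1c, which codes for H1.2, made up most of the clustered H1 counts, with 32.7 CPM on TCP, 30.3 on GelMA and 40.0 on GelMA-PSS. The fold was 0.924 (0.880 to 0.971) for GelMA against TCP and 1.32 (1.27 to 1.38) for GelMA-PSS against GelMA. The 6 clustered H1 genes summed to 34.3, 32.5 and 42.7 CPM, with 5 of 6 highest on GelMA-PSS (45.3% of all genes tested were). The exception was Hist1h1b, at 0.181, 0.132 and 0.105 CPM. Hist1h1d and Hist1h1e, the other H1 genes above 1 CPM, had 0.764, 1.27 and 1.30 CPM, and 0.624, 0.792 and 1.19 CPM. Hist1h1e overlaps Hist1h2be, so reads of these genes may not be separable.

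Core histone H2B. All 14 H2B genes with a ratio were lower on GelMA than on TCP, beside 51.7% of all genes, and 8 of 14 were more than 1.5-fold lower, beside 2.12%. The order TCP, then GelMA-PSS, then GelMA held for 11 of 14, beside 7.81% of all genes, for 9 of 14 with scaling by total count (5.93%), and for 5 of 14 with the correction for transcript length (9.42%). Hist1h2bc, the most abundant, had 51.7 CPM on TCP, 26.0 on GelMA and 39.9 on GelMA-PSS, a fold of 0.504 (0.480 to 0.528) between GelMA and TCP and of 0.773 (0.747 to 0.799) between GelMA-PSS and TCP. Hist1h2bk had 12.2, 5.99 and 9.17 CPM and Hist1h2be 11.6, 7.76 and 8.50 CPM, so that in each of the 3 genes GelMA was lowest and TCP highest.

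The H2B genes differed in size of ratio, and they are not independent of each other. Hist2h2be had 1.18, 1.14 and 1.14 CPM, a fold of 0.968 (0.745 to 1.25) for GelMA against TCP, and Hist1h2bf, with 0.903, 0.847 and 1.13 CPM, was the 1 gene of these 14 with GelMA-PSS highest (4 of all 19). Hist1h2bq and Hist1h2br are near-identical, with 13.7, 6.86 and 10.5 CPM and 14.0, 7.41 and 10.8 CPM. Of all 101-base windows (1 read length) in their transcripts, all and 99.8% respectively also occur in another gene, and 25.3% of those in Hist1h2bc do. Reads from such windows may have been listed under several genes. The 19 H2B genes summed to 139 CPM (137 to 141) on TCP, 76.0 (74.2 to 77.8) on GelMA and 106 (105 to 108) on GelMA-PSS, a fold of 0.547 for GelMA against TCP.

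Core histone H2A. The clustered H2A genes split by locus. All 13 Hist1 genes were highest on GelMA-PSS, whereas all 4 Hist2 genes were highest on TCP (45.3% and 29.0% of all genes tested were highest on these libraries). Of the 13, 7 reached 1 CPM, and Hist1h2aa had only 0, 0.0110 and 0.0166 CPM. Of short genes below 1 CPM with at least 10 counts in 1 library, 39.5% were highest on GelMA-PSS. On the (CPM + 1) scale the direction of the Hist1 genes did not hold after the correction for transcript length. Of the 7 Hist1 genes with a ratio, all 7 then lay below both controls on GelMA-PSS, beside 40.7% of all genes. That scale shrinks the ratios of such low genes: Hist1h2ai had a fold of 2.43 for GelMA-PSS against TCP but a log2 ratio of 0.59. The correction was not run on folds without a pseudocount, so low level and length are not separated here. The Hist1 genes summed to 6.99 CPM (6.53 to 7.47) on TCP, 7.39 (6.85 to 7.98) on GelMA and 13.1 (12.6 to 13.7) on GelMA-PSS, a fold of 1.88 (1.74 to 2.03) for GelMA-PSS against TCP. The controls overlapped within their intervals and GelMA-PSS stood above both. The Hist2 genes summed to 59.7, 40.8 and 45.1 CPM, a fold of 0.754 (0.731 to 0.779) for the same pair. Nearly all of the latter came from Hist2h2aa1 and Hist2h2aa2, near-identical copies with 28.9, 19.8 and 21.8 CPM and 28.9, 19.9 and 21.9 CPM. Hist2h2ac had 1.89, 0.990 and 1.29 CPM. Hist3h2a, the single Hist3 gene of the class, had 3.68, 3.98 and 5.95 CPM and so followed the Hist1 order.

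Core histone H3. The same split was seen in H3. The 9 Hist1 H3 genes, all below 1 CPM in every library, were each highest on GelMA-PSS. Of genes below this limit, with at least 10 counts in 1 library and no longer than the longest clustered gene there, 39.5% were. The 3 Hist2 H3 genes were each highest on TCP and lowest on GelMA-PSS, beside 21.2% of all genes. Together the Hist1 genes had 193 counts on TCP, 90 on GelMA and 824 on GelMA-PSS, which correspond to 1.59 CPM (1.37 to 1.83), 0.990 (0.796 to 1.22) and 4.55 (4.24 to 4.87). The fold for GelMA-PSS against TCP was 2.87 (2.45 to 3.37). Hist1h3d, the highest of them, had 0.427, 0.330 and 0.949 CPM, and Hist1h3i had 0.230, 0.110 and 0.767.

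Hist2h3c1 and Hist2h3c2 have the same count in each library (1398, 464 and 809), which correspond to 11.5 CPM on TCP, 5.11 on GelMA and 4.47 on GelMA-PSS. The folds were 0.445 (0.400 to 0.494) for GelMA against TCP and 0.389 (0.356 to 0.424) for GelMA-PSS against TCP. On the (CPM + 1) scale these copies were the 2 clustered genes that lay more than 2-fold below TCP, on GelMA (beside 0.296% of all genes) as on GelMA-PSS (beside 3.13%). Because every 101-base window of Hist2h3c1 also occurs elsewhere, in Hist2h3c2, Hist2h3b or the read-through gene Gm20634, the pair may stand for 1 measurement. Hist2h3b followed the same order with 2.70, 1.33 and 0.927 CPM.

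Core histone H4. H4 genes were the least abundant class. Only Hist1h4i passed 1 CPM, with 0.928 CPM on TCP, 0.616 on GelMA and 2.05 on GelMA-PSS, a fold of 3.33 (2.51 to 4.50) against GelMA and 2.21 (1.79 to 2.76) against TCP. It passed on GelMA-PSS alone, so that it stood highest there follows from the filter. With the length correction the log2 ratios of Hist1h4i were 0.30 to GelMA and 0.13 to TCP, in place of 0.92 and 0.66. All 11 Hist1 H4 genes were highest on GelMA-PSS, beside 45.3% of all genes tested and 39.5% of the short genes below the limit described for H3. They summed to 2.27 CPM (2.01 to 2.55) on TCP, 1.88 (1.61 to 2.19) on GelMA and 5.35 (5.02 to 5.70) on GelMA-PSS. The spread within the class was wide: Hist1h4n had 0.435, 0.308 and 0.486 CPM and Hist1h4m 0.246, 0.198 and 0.270 CPM, for which the interval of the fold of GelMA-PSS against TCP included 1. Hist2h4 was highest on GelMA, with 0.0903, 0.143 and 0.0386 CPM from 11, 13 and 7 counts.

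**Figure D3:**
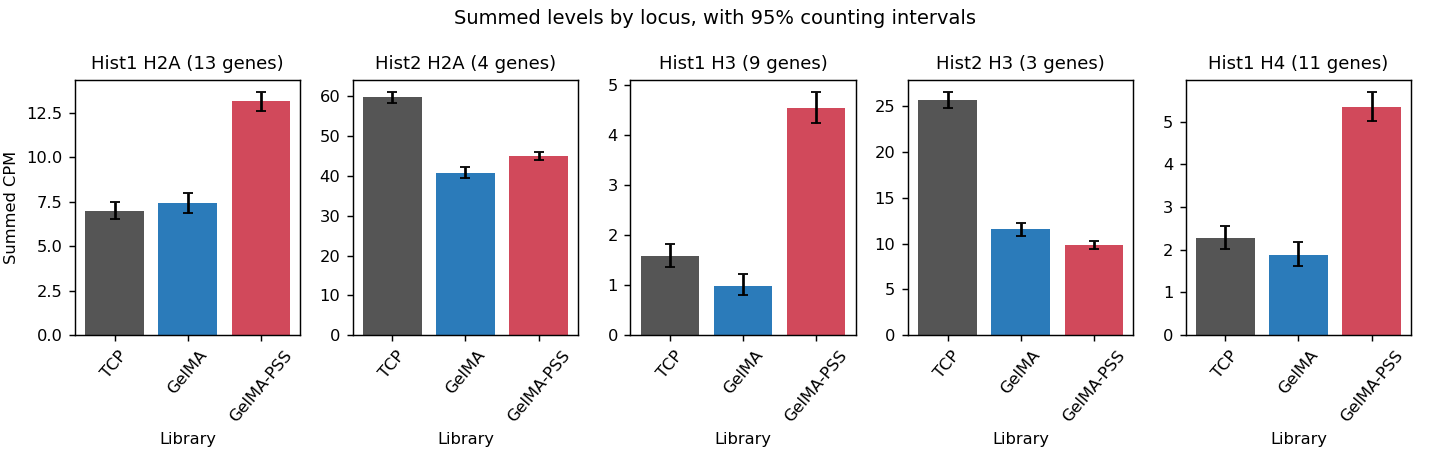
Summed CPM of the clustered H2A and H3 genes by locus and of the Hist1 H4 genes, 1 bar for each library on axes that start at 0, with 95% counting intervals. The Hist1 sums are highest on GelMA-PSS (13.1, 4.55 and 5.35 CPM) and the Hist2 sums on TCP (59.7 and 25.7 CPM).

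Within a library, the balance of the loci can be read without scaling between libraries. The Hist1 genes gave 10.5% of the Hist1 and Hist2 H2A counts on TCP (exact binomial interval 9.81 to 11.2), 15.3% on GelMA (14.3 to 16.4) and 22.6% on GelMA-PSS (21.8 to 23.4). For H3 the share was 5.82% (5.04 to 6.67), 7.90% (6.40 to 9.62) and 31.6% (29.8 to 33.4). With 1 copy of each near-identical Hist2 pair left out, the H2A shares were 18.5%, 26.2% and 36.2% and the H3 shares 10.1%, 13.3% and 45.8%. The order of the libraries was the same in both counts, with GelMA-PSS highest. Reads of the low Hist1 genes may include those that the coding sequences share: 68.2% of the 101-base windows of Hist1h3i occur in other Hist1 H3 genes.

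Of the 36 clustered genes below the limit, 30 were highest on GelMA-PSS. Of all genes below the limit with at least 10 counts in 1 library, 32.5% were highest there, and 39.5% of those no longer than the longest of these clustered genes. In 1 of the 68 clustered genes every library was at or under 3 counts, the smallest count treated as detected.

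The balance between clustered and variant genes can be given in the same way for the classes that have both. The clustered genes gave 21.0% of the H1 counts on TCP (20.4 to 21.6), 16.0% on GelMA (15.5 to 16.6) and 14.4% on GelMA-PSS (14.1 to 14.7). For H2A the shares were 19.2% (18.8 to 19.5), 14.1% (13.8 to 14.5) and 11.4% (11.2 to 11.6). For H3 they were 2.92% (2.82 to 3.02), 1.27% (1.20 to 1.35) and 0.944% (0.908 to 0.981). In all 3 classes the clustered share was highest on TCP and lowest on GelMA-PSS, and no 2 of the intervals within a class overlapped. The order was the same when counts were divided by transcript length (7.09%, 3.18% and 2.82% for H3) and with 1 copy of each near-identical pair (1.71%, 0.759% and 0.653%). Division by length reweights the genes equally in every library. It therefore does not take off the length trend of GelMA-PSS described below.

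The divergent H2A and H2B pairs hold 1 gene of each class around a shared promoter, and 10 of the 13 pairs had at least 10 counts in every library for both genes. For GelMA against TCP the H2A genes had a median fold of 1.02 (0.524 to 1.30 over the pairs) and the H2B genes of 0.553 (0.448 to 0.968), and the H2B fold was below that of its H2A partner in 9 of 10 pairs. For GelMA-PSS against TCP the medians were 1.92 and 0.768, again with 9 of 10 pairs in this direction, and for GelMA-PSS against GelMA they were 1.85 and 1.39, with 10 of 10. On the (CPM + 1) scale, which shrinks the ratios of the low H2A genes, the counts were 9, 9 and 6 of 10 for GelMA against TCP, GelMA-PSS against TCP and GelMA-PSS against GelMA. For GelMA-PSS against TCP, the H2A gene lay above 1 and its H2B neighbour below 1 in 8 of 10 pairs. Hist1h2ac had 0.476, 0.506 and 0.938 CPM, while Hist1h2bc, across the 250 bases shown above, had 51.7, 26.0 and 39.9. The exception for both comparisons with TCP was the Hist2 pair shown above, in which Hist2h2ac had a fold of 0.524 for GelMA against TCP and Hist2h2be of 0.968. The pairs share reads within each class through their coding sequences, so they do not count as 10 independent cases. In 7 pairs both genes reached 1 CPM in at least 1 library. The H2B ratio was lower in 6, 5 and 6 of these (GelMA against TCP, GelMA-PSS against GelMA and GelMA-PSS against TCP). After a correction for transcript length it was lower in 6, 3 and 6. Hist1h2ad, Hist1h2ae, Hist1h2ag, Hist1h2ah and Hist1h2ai reached 1 CPM only on GelMA-PSS. Their selection therefore favours a lower H2B ratio in the comparisons with GelMA-PSS, and these counts are no separate support.

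**Figure D4:**
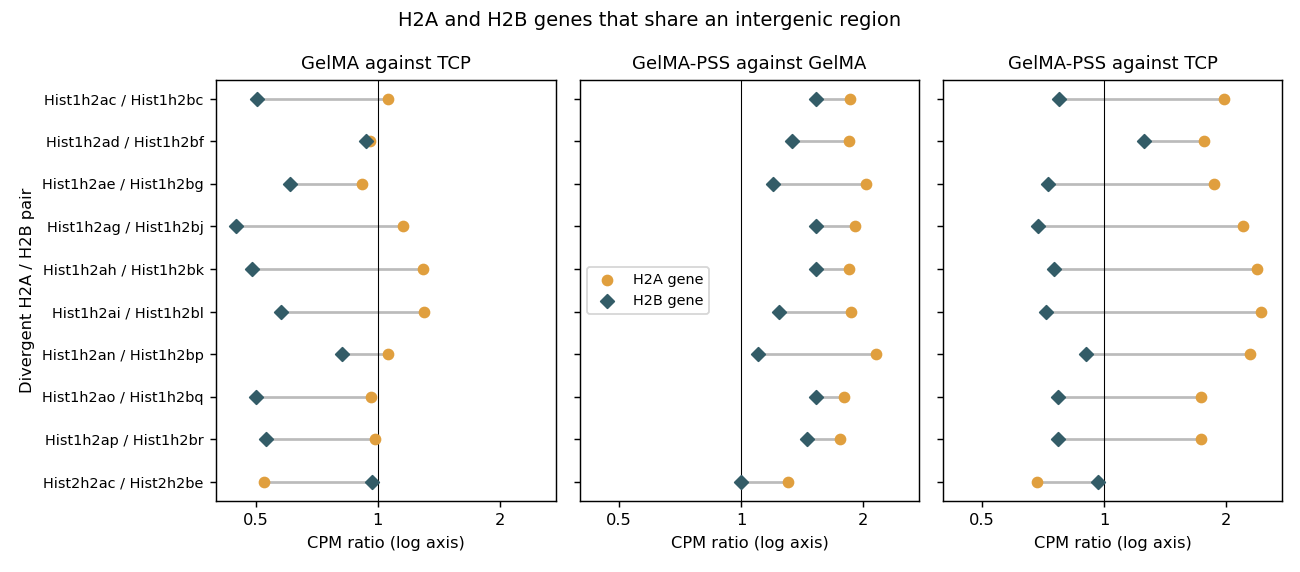
CPM ratios (log axis) of the H2A gene (orange circle) and the H2B gene (dark diamond) of the 10 divergent pairs with at least 10 counts in every library, in the 3 pairs of libraries. The diamond lies left of the circle in 9, 10 and 9 of 10 pairs, with median folds of 0.553 for H2B and 1.02 for H2A in GelMA against TCP.

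Transcript length moved with the ratios of GelMA-PSS, and the clustered genes are short. The median length was 602 bases for the 32 clustered genes and 1840 for the 8 variants. Over all genes the median log2 ratio of GelMA-PSS against GelMA was 0.58 in the shortest length decile (58 to 1124 bases), 0.27 in the decile of 1605 to 2035 bases and −0.62 in the longest. On the (CPM + 1) scale and relative to genes of their length, the clustered genes thus lay lower and the variants remained higher. With a loess correction the medians for GelMA-PSS against GelMA were −0.25 and 0.31, and against TCP −0.63 and 0.48. The clustered median against GelMA changed sign, that of H2A from 0.40 to −0.29 and that of H2B from 0.24 to −0.19, and the H2A median against TCP went from 0.43 to −0.16. Of the 11 H2A genes with a ratio, 8 lay above and 0 below both controls before the correction (45.3% and 39.3% of all genes). After it, 1 lay above and 10 below (40.9% and 40.7%). For the 6 of 11 that reached 1 CPM only on GelMA-PSS, the position before the correction follows from the filter. The (CPM + 1) scale shrinks the ratios of low genes before the trend is taken off. The uncorrected H2A median against GelMA was 0.40 on this scale and 0.76 with a pseudocount of 0.1 CPM. Low level and length are thus not separated in these changes. For GelMA against TCP the corrected medians were −0.32 for the clustered genes and −0.63 for H2B. The part of length in these results was not tested further.

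**Figure D5:**
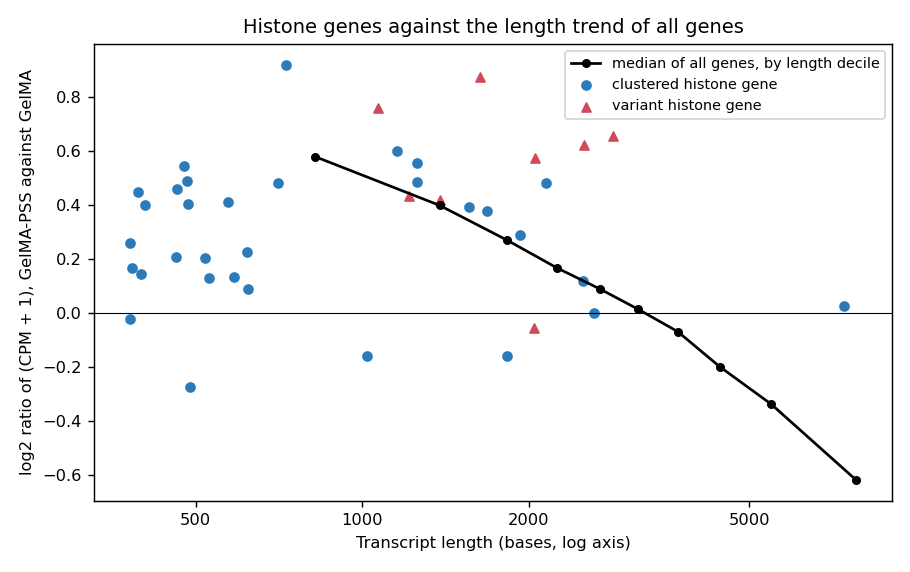
log2 ratio of (CPM + 1) for GelMA-PSS against GelMA over transcript length (log axis); blue circles are clustered and red triangles variant histone genes above 1 CPM, and the black line joins the medians of all genes by length decile, which run from 0.58 to −0.62. Most short clustered genes lie below the line, and most variants lie above it.

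The factors that make, carry or use histones were taken from lists by function. Of 27 genes for histone mRNA transcription and processing, 25 passed 1 CPM, with median log2 ratios of −0.00, 0.03 and 0.12 for the 3 pairs in the order above. Of these, 14 were higher on GelMA-PSS than on both controls and 8 lower (45.3% and 39.3% of all genes). Snrpe and Snrpg, Sm proteins shared by the U7 and the splicing snRNPs, were 2-fold higher than both (1.37% of all genes), with 81.6, 79.7 and 178 CPM and 57.1, 60.6 and 126 CPM. With the length correction neither passed 2-fold against both (0.513% of all genes), at 0.46 to GelMA and 0.49 to TCP for Snrpe and 0.53 and 0.71 for Snrpg (log2). Slbp, the protein that binds the stem-loop, had 16.3, 20.9 and 25.7 CPM. Npat and Casp8ap2, which act at histone gene promoters and in histone locus bodies, had 14.9, 17.9 and 16.0 CPM and 14.0, 14.6 and 11.2 CPM.

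Of 26 histone chaperones and exchange factors, 12 were higher on GelMA-PSS than on both controls and 11 lower (45.3% and 39.3% of all genes). Ubn2, a subunit of the HIRA complex that deposits H3.3, had 42.4, 53.6 and 17.4 CPM, and Srcap, the ATPase that exchanges H2A for H2A.Z, had 67.5, 91.4 and 32.0. These were the 2 genes of the list past 2-fold against both controls, both lower, beside 1.16% of all genes. With the length correction, the GelMA-PSS ratio of Ubn2 was −1.40 to GelMA and −1.11 to TCP (log2), and that of Srcap −0.62 and −0.45. Hira itself had 45.0, 46.6 and 41.2 CPM, and Asf1b, a chaperone of newly made H3 and H4, 13.9, 16.2 and 15.9.

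Of 38 genes of S phase and DNA replication, 31 were higher on GelMA-PSS than on both controls, beside 45.3% of all genes, with medians of 0.29, 0.19 and 0.52. With scaling by total count alone 21 of 38 were, beside 35.5% of all genes. Pcna, the sliding clamp of replication, had 101, 102 and 157 CPM, Dut 23.2, 28.3 and 53.6, and Gins2 4.88, 6.46 and 12.7. Mki67, a marker of cycling cells with a transcript of 10061 bases, was highest on GelMA with 42.6, 74.7 and 42.9 CPM. The S phase list and H2B thus took different orders in the controls: 33 of 38 S phase genes were higher on GelMA than on TCP, beside 48.3% of all genes, where all 14 H2B genes were lower. In bulk RNA a change in the number of cycling cells and a change in RNA per cell cannot be told apart.

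Of 11 genes of cell cycle exit, 10 passed 1 CPM, 5 of them higher and 4 lower on GelMA-PSS than on both controls (45.3% and 39.3% of all genes). Cdkn1a, the inhibitor p21 that rises when myoblasts leave the cycle, had 1480 CPM on TCP, 1204 on GelMA and 1186 on GelMA-PSS, and Rb1 had 207, 141 and 113. Both were thus lowest on GelMA-PSS, whereas the log2 ratios of the 10 genes to the nearer control ran from −0.49 to 0.55. Of 12 myogenic markers, 3 were higher and 5 lower than both controls, beside the same shares of all genes. With the length correction, 1 was higher and 9 were lower than both (40.9% and 40.7% of all genes). Myf5 had 13.9, 19.5 and 36.5 CPM, Myog 1100, 895 and 1037, and Myh3, the embryonic myosin heavy chain, 10182, 6355 and 3037. The part that the state of differentiation has in the histone values was not tested.

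Of 10 further histone variant genes, 4 passed 1 CPM, 3 of them higher on GelMA-PSS than on both controls (45.3% of all genes). Cenpa, the H3 variant of centromeres, had 18.5, 27.8 and 50.7 CPM. H2afj and H2afy2, which codes for macroH2A2, had 8.08, 8.81 and 14.9 CPM and 8.02, 9.54 and 15.3 CPM. Hils1, a linker histone known from spermatids, was the exception with 4.94, 3.68 and 3.40.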

How the data were processed

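RNA-seq libraries of c2c12 cells on TCP, GelMA and GelMA-PSS (1 each) were analysed. The deposited files hold raw counts for each gene symbol, not normalized. Per the paper the reads were paired-end and strand-specific. The paper and the labels name different library kits, so whether RNA without a poly(A) tail was retained is not known. The submitters' processing notes list TopHat, edgeR, mm10 and hg19, with no role or version. The counting tool, its annotation and its treatment of reads that match several genes are not given in the sources used here.

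The files hold 23282 lines, and 35 symbols occur more than once. Lines of 1 symbol were summed, giving 23238 symbols. CPM was scaled with TMM factors of edgeR 4.0.16 (1.02, 1.04 and 0.943 for TCP, GelMA and GelMA-PSS), in R 4.3.3 and Python 3.11.15. Log2 ratios, with a pseudocount of 1 CPM, were taken for the 13169 genes that reached 1 CPM in any library, and "2-fold" and "1.5-fold" refer to these ratios. With 1 library per substrate no p-value was computed. Counting intervals are exact Poisson (CPM), exact conditional binomial (folds) and Clopper-Pearson (shares), at 95%. At 3 counts the CPM is 0.0246, 0.0330 and 0.0166. The code was tested on simulated data of 12906 genes, where it recovered 200 of 200 genes changed 4-fold. The changed genes lay above the limit for ratios and had counting noise only, so smaller changes and low genes were not covered. Transcript lengths were those of GENCODE vM21, matched for 22197 symbols directly and for 650 by an older symbol, and the loess correction (span 0.3) used their log10.

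The histone genes and the lists were chosen with earlier results of these data known. The text names all variants, up to 5 clustered genes of each class with the highest mean CPM, clustered genes past 2-fold, up to 4 genes of each list with the largest ratio against the nearer control, and a set of preset markers. Other genes (exceptions within a class, members of the divergent pairs, other markers near 0) were named after their values were seen. Alternatives were another scaling, pseudocount, filter, threshold, treatment of repeated symbols, length correction, and counts per base. Leaving out 1 copy of 3 near-identical pairs was added after seeing the data.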

Additional observations from a re-analysis of the deposited data

How the results depend on the processing

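With 1 library per substrate, no value has a biological error, and leaving out a library removes its substrate. No paired analysis was possible because the labels give no replicate numbers and each substrate has 1 library. Reads shared by near-identical copies and, for genes of few counts, depth limit single-gene values. Median-of-ratios size factors, upper-quartile scaling and keeping the first line of a repeated symbol left the medians, sums and counts given for the histone sets and lists within their intervals (counts within 1.5 times). Where another setting moved a value, it is given here, and the cause was not tested unless the setting itself shows it. Under every scaling tried, GelMA-PSS remained highest in 7 variants, 13 Hist1 H2A, 9 Hist1 H3 and 11 Hist1 H4 genes, and TCP in 4 Hist2 H2A, 3 Hist2 H3 and 13 H2B genes.

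Scaling by the total count alone shifted the median of all genes by −0.13 for GelMA-PSS against GelMA and by −0.10 against TCP. It left 9 clustered genes and 1 variant below both controls (5 and 0 otherwise), the median of S phase genes for GelMA-PSS against GelMA at 0.051, with 21 of 38 in place of 31 above both controls, and the H2B median against TCP at −0.45. The summed log2 ratios of GelMA-PSS against GelMA and against TCP became 0.25 and 0.21 for H1, 0.15 and −0.24 for H2A, 0.34 and −0.50 for H2B, 0.054 and −1.03 for H3, −0.0037 and −0.52 for Hist2 H2A, and −0.37 and −1.49 for Hist2 H3. The sum of Hist1 H2A against GelMA became 0.68.

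A pseudocount of 0.1 CPM gave medians for GelMA-PSS against GelMA and against TCP of 0.76 and 0.73 for H2A and 1.59 and 1.07 for H4 (Hist1h4i), and −1.34 for H3 against TCP. It put 4, 1 and 6 of the 32 clustered genes past 2-fold (GelMA against TCP, GelMA-PSS against GelMA, GelMA-PSS against TCP), where 2, 0 and 2 passed with 1 CPM. With 1 CPM, 93 of all 13169 genes were 2-fold higher and 39 lower in the first pair, 233 and 307 in the second, and 490 and 412 in the last. The counts of all genes with 0.1 and 5 CPM are not given here. A pseudocount of 5 CPM put 0 clustered genes past 2-fold in the first and the last of these pairs. It gave medians for GelMA-PSS against GelMA of 0.12 for the clustered genes, 0.13 for H2A and 0.33 for H4, and of 0.25 for H4 against TCP. For GelMA-PSS against GelMA, the H2B ratio was then below the H2A ratio in 4 of 10 divergent pairs. This count was 6 with a pseudocount of 1 CPM and 10 without a pseudocount.

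Without a filter, 43 of 68 clustered genes stood above both controls in place of 13 of 32. Beside them, GelMA-PSS was highest in 45.3% of all genes tested. It was highest in 32.5% of genes below the limit with at least 10 counts in 1 library. The H3 medians, which then include the low Hist1 genes, became −0.11, 0.26 and 0.20 in place of −1.03, −0.16 and −1.19, so that the last changed its direction. Those of H4 for GelMA-PSS became 0.21 against GelMA and 0.27 against TCP. With a minimum of 5 CPM, the clustered medians were −0.75 for GelMA against TCP and −0.39 for GelMA-PSS against TCP, with 2 genes above and 2 below both controls. At 1.5-fold, 11, 2 and 5 of the 32 clustered genes passed in the 3 pairs. Of the 8 variants, 4 and 6 passed for GelMA-PSS against GelMA and against TCP. Of all 13169 genes, 461 were 1.5-fold higher and 279 lower for GelMA against TCP. These counts were 1448 and 1423 for GelMA-PSS against GelMA, and 1738 and 1509 for GelMA-PSS against TCP.

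The loess correction for length gave clustered medians of −0.25 and −0.63 for GelMA-PSS against GelMA and against TCP. It left 5 of 32 genes above both controls and 22 below (40.9% and 40.7% of all genes). Past 2-fold were 0 for GelMA and 7 for GelMA-PSS against TCP. Of all 13054 genes with a length, 85 were 2-fold higher and 34 lower in the first of these pairs, and 280 and 349 in the second. In 1 variant GelMA-PSS lay below both controls, and 0 in place of 3 variants were 1.5-fold above both. For GelMA-PSS against GelMA the medians were −0.29 for H2A, −0.19 for H2B, −0.68 for H3, 0.30 for H4 and −0.26 for myogenic markers, and against TCP −0.73 for H2B, −1.57 for H3, 0.13 for H4 and −0.55 for myogenic markers.

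With 1 copy of each near-identical pair, an alternative chosen after seeing the data, 1 clustered gene passed 2-fold in each comparison with TCP. The summed log2 ratios of H2A became −0.36 for GelMA against TCP, 0.39 for GelMA-PSS against GelMA and 0.026 against TCP, where −0.13 had been found, and those of H3 became 0.42 against GelMA and −0.67 against TCP. The clustered shares on TCP, GelMA and GelMA-PSS were 12.3%, 9.24% and 7.81% for H2A and 1.71%, 0.759% and 0.653% for H3. The Hist1 shares were 18.5%, 26.2% and 36.2% for H2A and 10.1%, 13.3% and 45.8% for H3. Counts per base of transcript gave clustered shares of 25.2%, 19.3% and 17.5% for H1, 34.7%, 26.7% and 21.6% for H2A and 7.09%, 3.18% and 2.82% for H3.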
